A study of Mus musculus with 2 samples.

Results

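The genes described here are 10 regulators of the G1 phase of the cell cycle: the D-type cyclins Ccnd1, Ccnd2 and Ccnd3, the kinases Cdk4 and Cdk6, the kinase inhibitors Cdkn1a, Cdkn1b, Cdkn2c and Cdkn2d, and the retinoblastoma gene Rb1. They were taken by name for their role, with earlier results of these data known, after Entrez identifiers had been matched to mouse symbols. All 10 of the 10 were among the 17216 genes listed in the series, and all 10 had a mean of at least 5 FPKM (a level scaled for transcript length and library depth). Total RNA was sequenced from flow-sorted bone marrow cells of C57BL/6 mice, with 1 library each from Ccp3-/- mice and their wild type littermates; the former lack the cytosolic carboxypeptidase CCP3. The gate was Lin–Sca-1+c-Kit+CD48–CD150+, the phenotype of long-term haematopoietic stem cells. The labels give neither age, sex nor the number of animals behind a library, nor the part of the gene that was deleted. Since each genotype has 1 library, the genotypes could not be tested against each other, no difference is checked by replicates, and each comparison is between these libraries.

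Blood stem cells are mostly quiescent, and the decision to leave quiescence is taken in G1. D-type cyclins are made in response to growth signals and bind CDK4 or CDK6; the active kinases phosphorylate the retinoblastoma protein, which then releases E2F transcription factors and permits S phase genes to be expressed. Inhibitors of the INK4 family, to which Cdkn2c (p18) and Cdkn2d (p19) belong, bind CDK4 and CDK6 themselves, whereas those of the CIP/KIP family, Cdkn1a (p21) and Cdkn1b (p27), bind cyclin and kinase together and also restrain CDK2.

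Agbl3, which encodes CCP3, reached 1.11 FPKM in the wild type library, against 0.66 FPKM in the other, a ratio of 0.595 with a counting interval of 0.289 to 1.19, so it did not check the genotype label. The second library is therefore called the library labelled Ccp3-/-, and every direction rests on that label. About 15.6 M and 14.4 M reads were reconstructed from the steps between low values. They gave reads per gene and approximate 95% intervals, which cover counting error only. The gate markers did not all follow the sort. Cd48, the RNA of a protein that sorted cells should lack, reached 136 and 114 FPKM, against 2.14 and 3.40 FPKM for Slamf1 (CD150), 59.7 and 56.5 FPKM for Kit and 49.1 and 28.4 FPKM for Ly6a (Sca-1). The libraries also differed in markers of other blood cells. Summed over each list, 20 neutrophil and granule markers stood at 8816 and 12331 FPKM, 15 B cell markers at 160.8 and 71.9 FPKM, 14 dendritic cell markers at 526 and 314 FPKM and 12 erythroid markers at 1530.1 and 492 FPKM. The dendritic cell sum included Flt3 (155 and 82.5 FPKM), which was also on the list of gate and stem cell genes. Within the neutrophil and granule list, the counting interval lay above a ratio of 1 for 17 genes and below it for 1. Over all genes the shares were 31.2% and 27.2%. Mpo stood at 1842 and 2792.5 FPKM and Ctsg at 895 and 1832 FPKM. Values were not higher for Ngp (581 and 565 FPKM), Camp (207 and 152 FPKM) and Ly6g (5.38 and 3.97 FPKM). The erythroid sum was mostly that of 4 globin genes (1363 and 307 FPKM); the other 8 summed to 167 and 185 FPKM, and 5 of these 8 had a higher value in the library labelled Ccp3-/-. T cell markers (11) summed to 62.4 and 42.6 FPKM, monocyte and macrophage markers (12) to 694 and 793 FPKM, and megakaryocyte and platelet markers (10) to 80.1 and 68.0 FPKM. No marker of these lists was missing from both libraries. Sex-linked transcripts differed too, with Xist at 5.38 and 44.2 FPKM and the Y-linked gene Eif2s3y at 44.6 and 11.5 FPKM. The part of cell composition and of sex in the G1 gene values was not tested, and in bulk RNA fewer cells of a type and less RNA per cell cannot be told apart.

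Cdk4 was by far the most abundant of the 10 transcripts per unit length, and Rb1 and Ccnd1 were the least abundant. In the wild type library the order by FPKM was Cdk4, Ccnd3, Cdk6, Ccnd2, Cdkn1b, Cdkn1a, Cdkn2c, Cdkn2d, Ccnd1 and Rb1. The counting intervals of neighbours in this order overlapped for Ccnd2 and Cdkn1b and for Cdkn1b and Cdkn1a, and were apart for the others. In the library labelled Ccp3-/- the first 5 places were the same, Cdkn2c stood above Cdkn1a, and Rb1 stood above Ccnd1. There the intervals overlapped for Cdkn1b and Cdkn2c, for Cdkn2c and Cdkn1a, and for Rb1 and Ccnd1. Cdk4 exceeded 98.1% of the genes whose mean reached 1 FPKM in the wild type library, while Rb1 exceeded 31.8% of them.

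**Figure D1:**
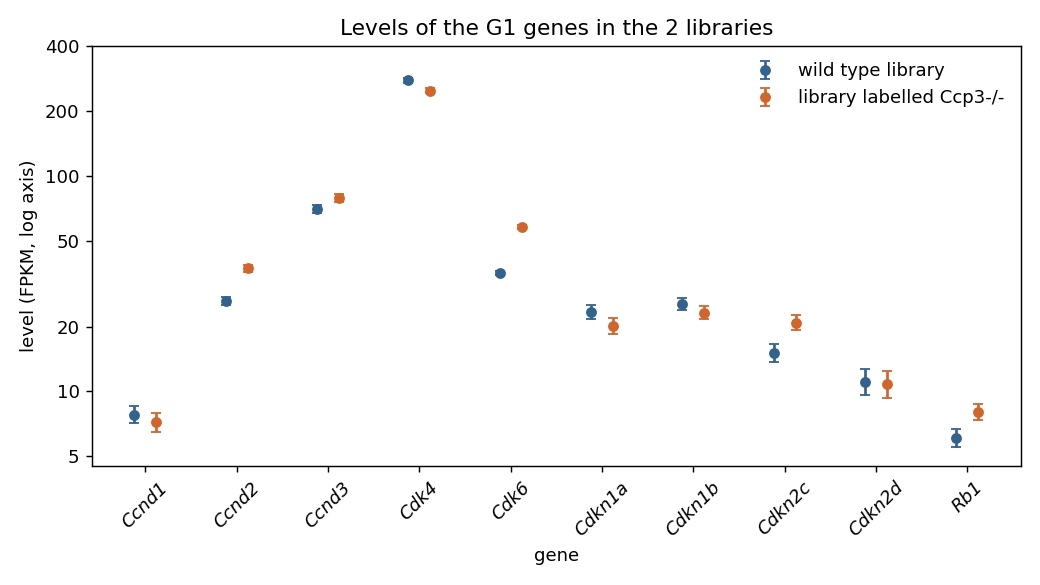
Level of each G1 gene in FPKM on a log axis, in the wild type library (blue) and the library labelled Ccp3-/- (orange); bars are approximate 95% intervals for counting error only. Cdk4 lies near 277 and 248 FPKM, and the widest gap between the libraries is that of Cdk6, at 35.5 and 57.75 FPKM.

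Among the D-type cyclins, Ccnd2 was higher in the library labelled Ccp3-/-, Ccnd3 slightly higher, and Ccnd1 not distinguishable at this depth. Ccnd3, the D-type cyclin with the highest level here, reached 70.4 FPKM in the wild type library, against 78.8 FPKM in the other, a ratio of 1.12 (95% counting interval 1.05 to 1.19). Ccnd2 was listed at 26.25 and 37.2 FPKM, from about 2350 and 3073 reads, a ratio of 1.42 (1.34 to 1.496). Ccnd1 was listed at 7.82 and 7.19 FPKM, from about 458 and 389 reads, and its ratio of 0.919 had an interval that included 1 (0.802 to 1.06). The summed level of the 3 cyclins was 104.5 and 123 FPKM, a ratio of 1.18 that became 1.35 after scaling to equal FPKM sums. Ccnd3 made up 67.4% of that sum in the wild type library and 63.98% in the other, Ccnd2 25.1% and 30.2%, and Ccnd1 7.48% and 5.84%. The cyclin pool of both libraries was thus mainly Ccnd3 RNA, with Ccnd2 in second place.

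As deposited, the partner kinases differed in opposite directions, Cdk6 being higher and Cdk4 lower in the library labelled Ccp3-/-. The Cdk4 difference, in log2(FPKM + 1) as library labelled Ccp3-/- minus wild type, became 0.03 after scaling to equal FPKM sums and -0.01 when centred on genes of like length. Cdk6 reached 35.5 FPKM in the wild type library, against 57.75 FPKM in the library labelled Ccp3-/-, from about 6379 and 9572 reads, a ratio of 1.63 (1.58 to 1.68). It was the only one of the 10 genes at least 1.5-fold apart. Cdk4 was listed at 277 and 248 FPKM, from about 5702 and 4724 reads, a ratio of 0.895 (0.861 to 0.930). The sum of both kinases was nearly the same as deposited, 313 and 306 FPKM, a ratio of 0.978 that became 1.12 with equal FPKM sums. Cdk6 made up 11.3% of the kinase sum in the wild type library (counting interval 10.99% to 11.7%) and 18.9% in the other (18.3% to 19.4%).

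The sequences upstream of Cdk4 and Cdk6 are shown because these kinases share their cyclin partners and differed in direction as deposited. They come from RefSeq, build GRCm38.p6, which supplied windows for 7 of the 10 genes, and the stretches printed leave out bases that an annotated exon covers. Capitals mark CACGTG, the E-box to which MYC family proteins bind, and TATAAA, the TATA box; both were searched on both strands, and they share no bases. The Cdk4 stretch is chr10:127063285-127063533 and the Cdk6 stretches, on either side of a 57-base annotated exon part, chr5:3343643-3343731 and chr5:3343789-3343892, all on the plus strand and written 5′ to 3′.
Cdk4: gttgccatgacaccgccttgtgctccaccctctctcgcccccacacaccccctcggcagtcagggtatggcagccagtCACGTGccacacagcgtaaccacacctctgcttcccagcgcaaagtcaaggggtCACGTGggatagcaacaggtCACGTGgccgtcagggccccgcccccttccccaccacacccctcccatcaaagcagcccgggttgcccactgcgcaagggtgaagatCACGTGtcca
Cdk6, first stretch: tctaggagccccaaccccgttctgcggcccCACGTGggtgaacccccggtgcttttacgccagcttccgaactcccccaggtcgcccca
Cdk6, second stretch: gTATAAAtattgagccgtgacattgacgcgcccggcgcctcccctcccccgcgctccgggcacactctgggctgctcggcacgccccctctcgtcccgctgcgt
The 250 bases before the Cdk4 start held 4 E-boxes, which began 172, 118, 98 and 11 bases upstream of it. Of all 32536 distinct windows of this length, 6.04% held at least 1. The Cdk6 window held 1, beginning 220 bases upstream, and a TATA box beginning 103 bases upstream, a motif that 12.3% of windows held. Neither motif occurred in the other windows of these genes. The letters TTCCCGC or TTGGCGC, as in E2F sites, occurred in 1 of their 10 windows, that of a Cdkn2c start, and in 5.65% of all windows. The GC box GGGCGG occurred in 7 of the 10 and in 33.0% of all windows. Motifs were counted over whole windows, exon bases included. All 250 bases of that Cdkn2c window, and of a Cdkn1a window with the GC box, lay in annotated exons. Myc itself was listed at 169 and 175 FPKM. A match is a description of these letters, and no binding was measured.

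Of the INK4 inhibitors, Cdkn2c was higher in the library labelled Ccp3-/- and Cdkn2d was not distinguishable at this depth. Cdkn2c reached 15.1 FPKM in the wild type library, against 20.9 FPKM in the library labelled Ccp3-/-, from about 442 and 585 reads, a ratio of 1.39 (1.22 to 1.57). Cdkn2d was listed at 11.1 and 10.8 FPKM, from about 212 and 191 reads, and its ratio of 0.974 (0.796 to 1.19) was not distinguishable from 1 at this depth. Cdkn2c has 2 transcripts in the files, and its deposited length was 1928.13 bases in the wild type library and 1988.55 bases in the other. Its transcripts cannot be given separately, because the files hold 1 value per gene. Ccnd3, with 3 transcripts, had lengths of 2040.57 and 2033.95 bases, and the other members had the same length in both libraries.

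Both CIP/KIP inhibitors were slightly lower in the library labelled Ccp3-/- as deposited, though with equal FPKM sums Cdkn1b stood above 0 (0.05) and Cdkn1a near it (-0.02). Cdkn1a, the p53-inducible inhibitor p21, was listed at 23.4 and 20.2 FPKM, from about 681 and 543 reads, a ratio of 0.8635 (0.769 to 0.967). Cdkn1b, which encodes p27, was listed at 25.55 and 23.2 FPKM, from about 941 and 789 reads, a ratio of 0.907 whose interval ended just below 1 (0.824 to 0.999). As deposited, the 4 inhibitors together summed to 75.1 FPKM in each library, but with equal FPKM sums the ratio of their totals was 1.14. Of the inhibitor total, Cdkn2c made up 20.1% in the wild type library and 27.8% in the other, and Cdkn1a 31.1% and 26.9%. Per unit length the kinases exceeded the 4 inhibitors by 4.17-fold and 4.08-fold.

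Rb1, the substrate of the cyclin D kinases, reached 6.07 FPKM in the wild type library, against 8.02 FPKM in the other, from about 436 and 532 reads, a ratio of 1.32 (1.16 to 1.504). Its annotated exons overlap those of Lpar6 and Rcbtb2 on the opposite strand. Lpar6 was listed at 13.8 and 9.44 FPKM and Rcbtb2 at 14.6 and 9.65 FPKM, in the direction opposite to Rb1. Whether counting used the strand is not given in the sources used here, so reads in the shared exon bases cannot be assigned to one gene. The same holds for Cdk4, which shares exon bases with Tspan31 (36.8 and 34.5 FPKM), for Ccnd3 with Bysl (29.5 and 32.4 FPKM), and for Ccnd1 with LTO1 (11.7 and 9.99 FPKM). The other listed overlap was that of Ccnd2 with 9330179D12Rik (0.22 and 0.28 FPKM).

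Ratios between related genes within a library do not depend on how the libraries are scaled to each other. The Cdk6 to Cdk4 ratio was 0.128 (0.123 to 0.133) in the wild type library and 0.233 (0.225 to 0.241) in the library labelled Ccp3-/-, which is 1.82-fold higher (1.73 to 1.91). The Cdkn2c to Cdkn2d ratio was 1.35 (1.15 to 1.60) and 1.93 (1.64 to 2.29), which is 1.42-fold higher (1.13 to 1.79). The Ccnd2 to Ccnd3 ratio was 0.373 and 0.472, which is 1.27-fold higher (1.17 to 1.37). The Ccnd1 to Ccnd3 ratio was lower in the library labelled Ccp3-/-, at 0.111 and 0.0912, a quotient of 0.821 (0.709 to 0.952). By contrast, the Cdkn1a to Cdkn1b ratio was 0.915 and 0.871, and the quotient of these, 0.952, had an interval that included 1 (0.822 to 1.103). All these intervals cover counting error only.

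**Figure D2:**
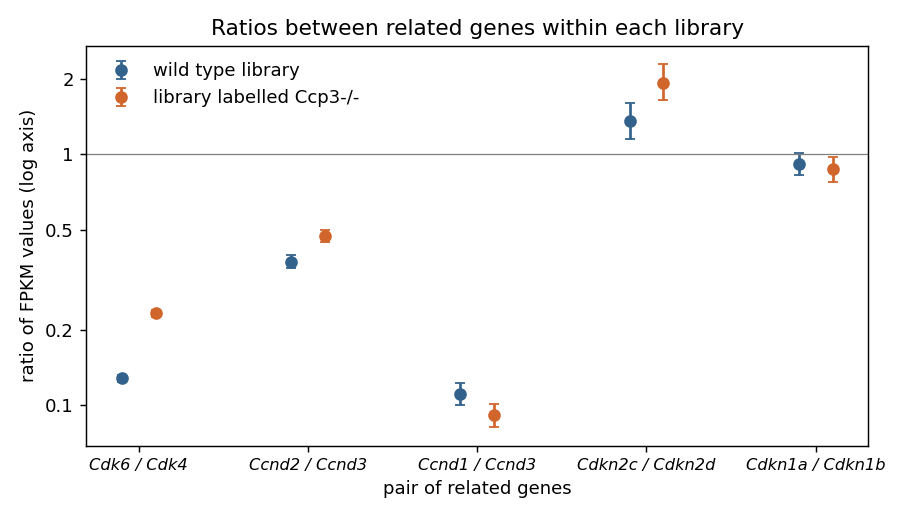
Ratio of FPKM values between related G1 genes within each library, on a log axis, with approximate 95% intervals for counting error (blue, wild type; orange, library labelled Ccp3-/-). The Cdk6 to Cdk4 ratio stands at 0.128 and 0.233, while the Cdkn1a to Cdkn1b intervals overlap.

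Of the 10 G1 genes, Cdk6 passed the rule of size used in place of a test. A gene was counted as higher or lower when its mean was at least 1 FPKM and its difference on the log2(FPKM + 1) scale, which understates the change of low genes, was at least 1.5-fold. By this rule 1 of 10 members was higher (Cdk6, difference 0.69), where 6.11% of 11985 genes were, and 0 of 10 were lower, where 6.13% were. The next largest differences, below the threshold, were those of Ccnd2 (0.49), Cdkn2c (0.45) and Rb1 (0.35). The most negative was that of Cdkn1a (-0.20). The median difference was 0.06 over the members and 0.01 over all genes. The counting interval lay above 1 for 5 members and below 1 for 3, where it did so for 31.2% and 27.2% of all genes; it narrows with the number of reads.

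The difference between the libraries moved with transcript length, and Cdk6 has the longest transcript of the 10, at 11534 bases. Over the 2514 genes of up to 1500 bases the median difference was -0.23, over the 1621 genes above 5000 and up to 10000 bases it was 0.24, and over the 161 genes above 10000 bases it was 0.34. Among the last, 16.1% were at least 1.5-fold higher. After each difference was centred on the median of the 200 genes nearest in length, Cdk6 stood at 0.37 (1.29-fold), Ccnd2 (5772 bases) at 0.28 and Rb1 (4642 bases) at 0.19. Cdkn2c then had the largest difference of the members, 0.56 (1.47-fold), still below the threshold, and Cdk4, at 1365 bases, stood at -0.01. No member then passed 1.5-fold, where 4.96% of genes were higher and 4.41% lower. Centring also brought the quotient of the Cdk6 to Cdk4 ratios from 1.82 to 1.30, and that of Ccnd2 to Ccnd3 from 1.27 to 1.02. The quotient of Cdkn2c to Cdkn2d moved from 1.42 to 1.33, and that of Ccnd1 to Ccnd3 from 0.821 to 0.740, further from 1. That of Cdkn1a to Cdkn1b moved from 0.952 to 1.04, to the other side of 1.

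**Figure D3:**
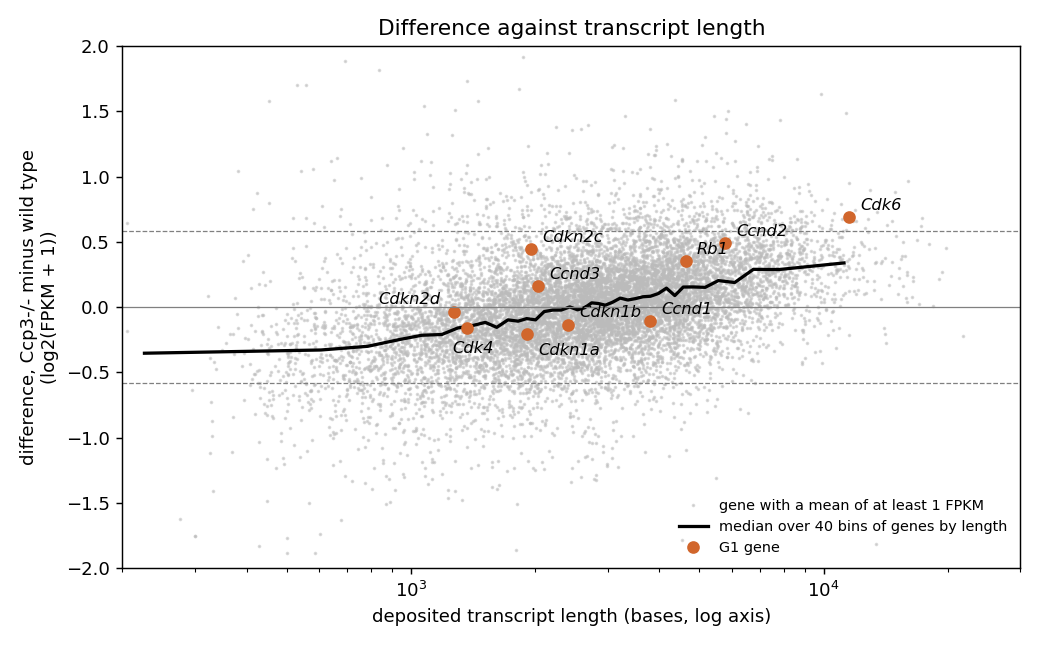
Difference between the libraries on the log2(FPKM + 1) scale against deposited transcript length in bases (log axis), for genes whose mean reached 1 FPKM (grey), with the median over 40 bins of genes (line), the G1 genes (orange) and 1.5-fold (dashed); 194 genes lie beyond the axes. Cdk6, Ccnd2 and Rb1 lie where the line is above 0, and Cdkn2c lies above the line at lengths of 1928.13 and 1988.55 bases.

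The scaling set the direction of several members. When both libraries were brought to the same FPKM sum, the median of all genes moved by 0.17, and Ccnd2 (0.67) and Cdkn2c (0.63) passed 1.5-fold beside Cdk6 (0.87). With that scaling 1474 of all 11985 genes were at least 1.5-fold higher, against 732 as deposited. Of all genes past 1.5-fold, 49.9% were higher as deposited and 78.8% with equal sums. Cdk4 then stood at 0.03, Cdkn1b at 0.05, Ccnd1 at 0.06 and Cdkn2d at 0.14, each on the other side of 0, and all 4 lay below the shift of all genes. Ccnd2, Ccnd3, Cdk6, Cdkn2c and Rb1 were above 0, and Cdkn1a below 0, as deposited, with equal sums and after length centring.

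**Figure D4:**
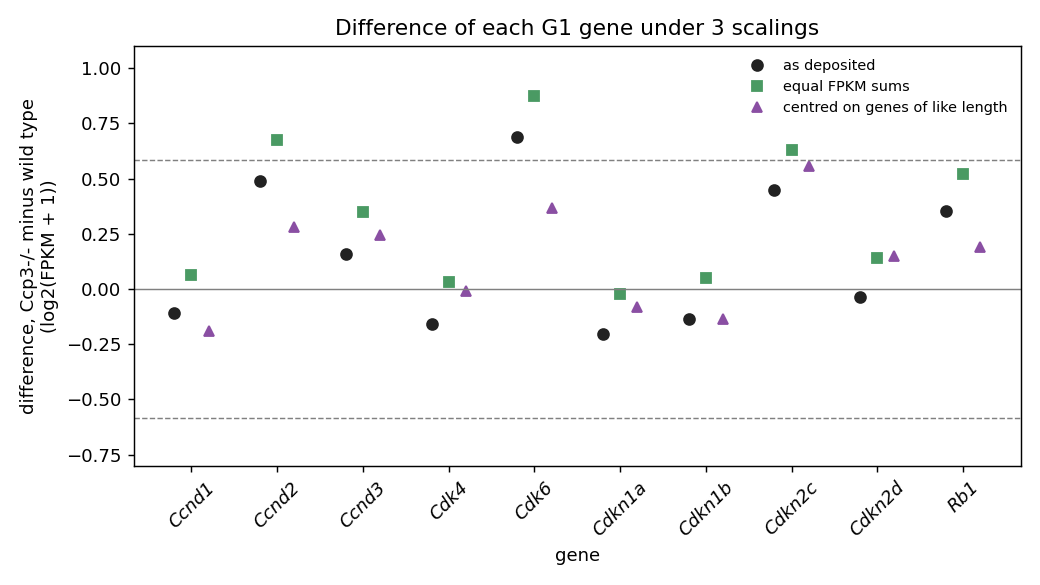
Difference of each G1 gene on the log2(FPKM + 1) scale as deposited (circles), with equal FPKM sums (squares) and after centring on genes of like length (triangles), with 1.5-fold dashed. Cdk6 passes the upper line as deposited (0.69) and with equal sums (0.87) and lies at 0.37 after centring.

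The genes around the G1 regulators were counted by the same rule, which 6.11% of all genes passed as higher and 6.13% as lower. These shares are the background of each list count as deposited that follows. Of 127 measured genes in 8 pathway lists, members left out, 4 passed 1.5-fold upward and 4 downward. Their median difference was 0.08, against 0.01 over all genes. With equal FPKM sums 22 of the 127 were higher, where 1474 of all 11985 genes were and the median of all genes was 0.18. The other inhibitors were low or not listed. Cdkn1c, which encodes p57, stood at 2.82 and 2.70 FPKM, and Cdkn2a and Cdkn2b were listed in neither library.

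The arm that follows cyclin D, namely cyclin E, cyclin A, CDK2 and the CDK-activating kinase, had 0 of 8 measured genes higher and 1 lower, with a median of -0.02. The lower gene was Mnat1, the assembly factor of the CDK-activating kinase, at 24.1 and 13.6 FPKM, a ratio of 0.562 (0.502 to 0.628). Its partners Ccnh (40.4 and 35.1 FPKM) and Cdk7 (7.85 and 7.58 FPKM; named after its value was seen) were less than 1.5-fold apart. Cdk2 stood at 41.1 and 40.02 FPKM, Ccna2 at 57.4 and 68.2 FPKM, and Cdc25a, a phosphatase that activates CDK2, at 24.2 and 33.2 FPKM. The cyclin E genes, named after their values were seen, stood at 12.61 and 12.62 FPKM (Ccne1) and 15.4 and 20 FPKM (Ccne2).

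Downstream of Rb1, 0 of 17 pocket protein, E2F and MuvB genes passed 1.5-fold, with a median of 0.17 that was 0.07 after length centring. The E2F partner Tfdp1 stood at 91.1 and 125 FPKM, the repressive E2F4 gene E2f4 at 63.5 and 63.4 FPKM, the histone-binding gene Rbbp4 at 56.6 and 64.1 FPKM, and the atypical repressor E2f8, just below the threshold at 0.58, at 36.9 and 55.7 FPKM. Of 32 E2F target genes 0 passed, where 12.2% of all genes passed in either direction, with a median of 0.11. Among them were the replication clamp gene Pcna (375 and 311 FPKM) and the replicative helicase genes Mcm7 (210.3 and 177 FPKM), Mcm6 (164 and 150.5 FPKM) and Mcm3 (133 and 143 FPKM). Of 22 mitotic genes 0 passed, with a median of 0.14, and the most abundant were Top2a (163 and 191 FPKM), Ube2c (141 and 132 FPKM), Mki67 (98.9 and 140.3 FPKM) and Birc5 (96.1 and 88.2 FPKM). The E2F target list also holds genes of the other lists, such as E2f8, Ccna2 and Cdc25a, so the list counts are not separate results.

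Upstream, 2 of 19 transcription factor genes were higher and 0 lower, beside 6.11% and 6.13% of all genes, with a median of 0.06. They were Sp1, a factor of GC boxes, at 9.41 and 16.7 FPKM, and the MYC antagonist Mxd1, at 4.86 and 8.95 FPKM. After length centring Sp1 (7818 bases) stood at 0.47, below 1.5-fold, and Mxd1 (4662 bases) at 0.61, above it. Trp53, which encodes p53, stood at 125 and 107 FPKM, Max, the partner of MYC, at 54.6 and 57.1 FPKM, and Mxd3 at 42.5 and 33.4 FPKM. Among 19 measured p53 target genes, 1 was higher and 3 were lower, beside the same 6.11% and 6.13%, with a median of 0.09. Pmaip1, which encodes the pro-apoptotic protein NOXA, stood at 2.77 and 6.35 FPKM. The lower genes were the antiproliferative gene Btg2 (30.2 and 16.0 FPKM), Plk2 (4.68 and 2.62 FPKM) and Phlda3 (1.81 and 0.73 FPKM, from about 41 and 15 reads). The p53 targets Bax (33.3 and 33.5 FPKM), Mdm2 (28.8 and 28.2 FPKM) and Aen (22.5 and 25.75 FPKM) were within 1.5-fold, like Cdkn1a, and Sesn1 stood at 32.1 and 22.2 FPKM.

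In the machinery that degrades cyclins and inhibitors, 1 of 19 genes was higher and 0 lower, with a median of 0.07. The higher gene was Usp2, a deubiquitinase, at 1.54 and 3.08 FPKM. The most abundant were Cks2 (116 and 129 FPKM), Skp1 (113 and 109.8 FPKM), Ddb1 (83.4 and 103 FPKM) and Cks1b, a cofactor in the degradation of p27 (92.9 and 78.0 FPKM).

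**Figure D5:**
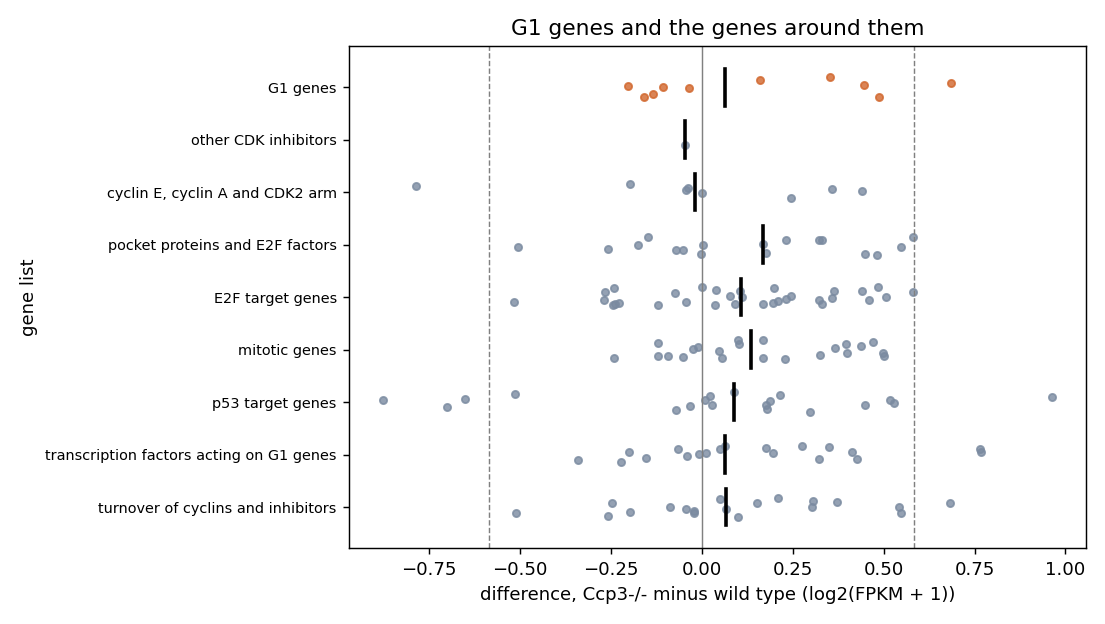
Difference on the log2(FPKM + 1) scale for each measured gene (points) of the G1 genes and of 8 lists around them, with list medians (black bars) and 1.5-fold (dashed). List medians lie between -0.05 and 0.17, and the E2F target and mitotic lists have no gene past 1.5-fold.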

How the data were processed

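FPKM values and transcript lengths per Entrez gene were deposited by the authors; per the submitters' processing notes HISAT, HISAT2, RSEM and the build mm9 were used, with roles and versions not given in the sources used here. Symbols came from RefSeq GRCm38.p6 (17169 of 17216 genes matched); because that build differs, only the upstream sequences carry coordinates. Genes missing from a file were set to 0. Differences are log2(FPKM + 1), library labelled Ccp3-/- minus wild type; ratios use FPKM alone. Genes needed a mean of at least 1 FPKM and 1.5-fold to be counted. Reads were estimated from the step (63.9 and 69.3) on which FPKM times length, less 52 and 47 bases, fell in short genes with 1 transcript. Within 0.15 of whole reads were 88.1% of 285 and 88.4% of 284 values, the step having been chosen to bring them closest. Intervals are exact conditional (ratios between libraries or genes), exact Poisson (levels) or a normal approximation on the log scale (quotients of ratios), all on rounded reads. The read reconstruction, the 1.5-fold rule and the length centring were run on simulated data. The simulated reads were Poisson counts drawn under the same step model. They held no variation between animals or libraries, so this run could not measure it.

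Named genes were all 10 members and, of each pathway list, the 4 most abundant and those past 1.5-fold. Of the marker lists, the gate genes are named here, although the rule also named the 2 largest differences of each. Some neutrophil and granule genes are named as well, after their values were seen. With 2 libraries no gene was named for likeness to a member. The members and lists were chosen with earlier results of these data known. Overlapping exons came from GENCODE M21. Computations ran in scipy 1.17.1, numpy 2.4.6 and pandas 2.3.3 under Python 3.11.15, with plots from matplotlib 3.10.9.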

Additional observations from a re-analysis of the deposited data

How the results depend on the processing

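Alternatives were pseudocounts of 0.1 and 5, equal FPKM sums, equal upper quartiles, a median ratio of 1, length centring, no filter and a mean of 5 FPKM or more. The count of higher members, 1, became 3 with equal sums and 0 after length centring; the count of lower members was 0 under each. Over all genes the 732 higher and 735 lower became 1474 and 397 with equal sums, 282 and 322 with a pseudocount of 5, and 481 and 430 at a mean of 5 FPKM or more. In the pathway lists the 4 higher became 10 with a pseudocount of 0.1, 22 with equal sums, 1 with a pseudocount of 5 and 2 at a mean of 5 FPKM or more, and the 4 lower became 2 with a pseudocount of 5 and 2 at a mean of at least 5 FPKM. The pseudocount and the filter change by construction how many genes can pass. The cause of the other changes was not tested. Cdk6 ranged from 0.37 to 0.87 and Cdkn2c from 0.37 to 0.63. Of the 10 members, 6 kept 1 sign under all 7 settings, and Ccnd1, Cdk4, Cdkn1b and Cdkn2d did not. No paired analysis was possible because each genotype has 1 library, and no library could be left out. The counting intervals of Cdkn2d and Ccnd1 included a ratio of 1, and that of Cdkn1b ended at 0.999.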
